A study of Mus musculus with 8 samples.

Results

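The HoxB cluster genes measured here are Hoxb13, Hoxb9, Hoxb8, Hoxb7, Hoxb6, Hoxb5, Hoxb4, Hoxb3 and Hoxb2. They are 9 of the 54141 genes in the deposited table, and 8 of the 9 had enough counts to enter the genotype fit. They were chosen by name as members of the cluster, with their levels in the libraries and their genotype contrast already known. The values of that contrast are therefore given as a description.

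RNA was sequenced from mouse distal colon epithelium, shaken loose from the tissue in EDTA and strained. There were 4 wild-type libraries (WT) and 4 from mice homozygous for a Degs2 mutant allele (Degs2_KO), all on a c57bl6/j background. The comparison concerns the homozygous mutation of Degs2, a ceramide-modifying enzyme of phytoceramide synthesis. No source used here gives the age or sex of the mice, the position along the distal colon or the nature of the allele. Nor do the labels state that each library came from its own mouse, so the errors and p-values cover the spread between samples, which may be technical.

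Hox genes encode homeodomain transcription factors that give cells their position along the head-to-tail axis. Their order along the chromosome follows the order of their expression domains, with the genes at the 5′ end of a cluster expressed most posteriorly, and this code persists in the adult gut epithelium. Hoxb13 lies at the 5′ end of HoxB, far from the other genes of the cluster, and is known for its expression in the distal colon, rectum and prostate.

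The libraries did not fall apart by genotype in these genes. WT 1 and Degs2_KO 3 held the 2 highest levels of 8 of the 9 members, from Hoxb9 to Hoxb2, and WT 4 came next in all 8. The remaining member, Hoxb13, had its 2 lowest levels in the same WT 1 and Degs2_KO 3. WT 2 and WT 3 were the 2 lowest libraries for 6 of the 9 members. Because WT 1 and Degs2_KO 3 carry different genotype labels, every library is given by itself below and no average over chosen libraries is made. Fewer cells that express a gene and less of its RNA per cell cannot be told apart in such bulk samples.

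**Figure D1:**
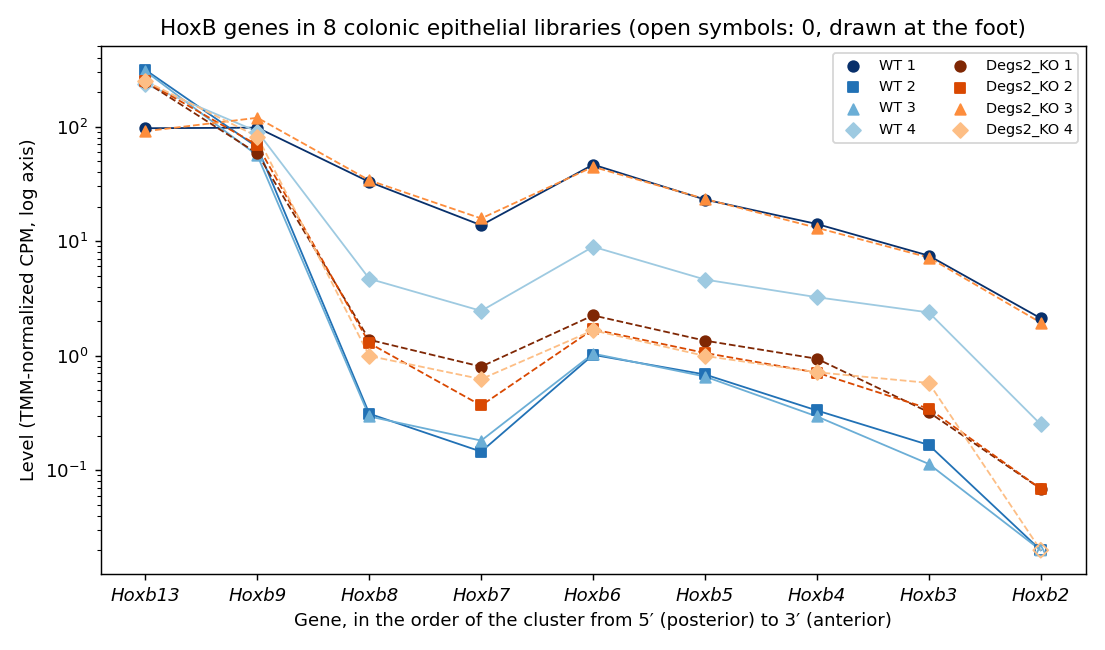
Level of each HoxB gene in each library (TMM-normalized CPM, log axis), with the genes in cluster order from Hoxb13 to Hoxb2. Solid lines are WT, dashed lines are Degs2_KO, and open symbols at the foot stand for 0; WT 1 and Degs2_KO 3 run together above the other libraries from Hoxb8 to Hoxb2 and below them at Hoxb13.

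Libraries were sequenced to between 32.8 and 49.8 M assigned fragments. Levels are given in CPM, the count scaled to library size and normalized for library composition by TMM. The detection floor was taken as 3 fragments, worth between 0.0602 and 0.0914 CPM by library totals without TMM, so it is approximate on the scale of the levels. This floor covers counting error only. Degs2 ranged over 106 to 151 CPM in the WT libraries and 47.7 to 65.9 CPM in the Degs2_KO libraries, without overlap, so Degs2 RNA was lower in the mutant but still present. Epithelial markers such as Epcam and Krt8 summed to between 13223 and 16948 CPM per library, whereas fibroblast markers summed to at most 35.4 CPM.

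Hoxb13 (ENSMUSG00000049604, chr11:96194316-96197447 on GRCm38, plus strand) was the most abundant member by CPM in all libraries except WT 1 and Degs2_KO 3. In those, Hoxb9 was higher, at 97.7 and 119 CPM. The level of Hoxb13 was 96.6, 312, 304 and 234 CPM in WT 1 to 4 and 245, 248, 91.0 and 249 CPM in Degs2_KO 1 to 4. WT 1 and Degs2_KO 3 were thus at 0.392 and 0.369 times the median library, and the other 6 libraries lay within 234 to 312 CPM. WT libraries averaged 237 ± 99.7 CPM and Degs2_KO libraries 208 ± 78.2 CPM (SD, n = 4 each), and the ranges overlapped.

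Hoxb9 (ENSMUSG00000020875, chr11:96271457-96276595, plus strand), a gene of the posterior trunk in the embryo, starts 74.0 kb beyond the end of Hoxb13. It measured 97.7, 65.9, 55.9 and 90.3 CPM in WT 1 to 4 and 58.2, 68.8, 119 and 81.8 CPM in Degs2_KO 1 to 4. Its libraries were ordered as those of the more anterior members at the top, with Degs2_KO 3, WT 1 and WT 4 highest, but over a span of only 1.09 on the log2 scale. WT averaged 77.5 ± 19.8 CPM and Degs2_KO 82.0 ± 26.6 CPM (SD, n = 4 each), with overlapping ranges.

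Hoxb8 (ENSMUSG00000056648, chr11:96281905-96285315, plus strand), known from blood cell progenitors and grooming behaviour, had the widest span of the tested members, 6.67 on the log2 scale. The WT libraries 1 to 4 held 32.9, 0.311, 0.294 and 4.69 CPM of Hoxb8, and the Degs2_KO libraries 1 to 4 held 1.37, 1.28, 33.9 and 0.993 CPM. The levels in WT 1 and Degs2_KO 3 were 24.7 and 25.5 times the median of the 8 libraries, and that in WT 4 was 3.53 times the median. In assigned fragments these 3 libraries had 1040, 1468 and 187, against 13 to 60 in the other libraries, so the low levels of Hoxb8 were above the floor of 3 fragments.

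The promoter of Hoxb8 is shown as that of the tested member with the widest span, and it is 1 of the 2 member promoters found in the RefSeq table used here. The sequence is from RefSeq on GRCm38.p6, chr11:96281655-96281954, plus strand, 250 bases before to 50 after the gene's start. Capitals mark TTTAT, the core of the sites that caudal factors such as Cdx1 and Cdx2 recognise, on either strand, and the longer CAATAAA form (TTTATTG on the opposite strand), which contains TTTAT.
Hoxb8 promoter: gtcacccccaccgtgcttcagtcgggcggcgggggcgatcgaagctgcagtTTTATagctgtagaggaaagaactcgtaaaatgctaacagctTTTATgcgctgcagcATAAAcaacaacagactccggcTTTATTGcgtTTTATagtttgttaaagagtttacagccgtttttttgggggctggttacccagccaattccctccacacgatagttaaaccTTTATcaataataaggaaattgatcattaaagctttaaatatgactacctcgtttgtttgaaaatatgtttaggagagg
The window held 6 matches to TTTAT on either strand, of which 1 was part of CAATAAA. Of 32851 mouse promoters of the same length, 40.0% held TTTAT at least once, 0.502% held it 6 or more times, and 4.60% held CAATAAA. It held 13 CG dinucleotides, where the median promoter held 7. Neither AGGTCA, a half-site of retinoic acid and other nuclear receptors present in 16.3% of promoters, nor TGATTNAT, a Hox and Pbx pair site present in 3.22%, was among its letters on either strand. These matches describe letters only, and no binding was measured.

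Hoxb8 is also the textbook target of a microRNA encoded in the cluster. The mature sequence of miR-196a-5p, made from Mir196a-1 between Hoxb13 and Hoxb9 (chr11:96265187-96265208, plus strand), and the best-matching stretch of the Hoxb8 transcript are shown 5′ to 3′, the first from RefSeq and the second in DNA letters from the GENCODE M21 transcripts. Capitals mark the seed, bases 2 to 8, and the bases opposite it.
miR-196a-5p: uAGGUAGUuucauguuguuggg
Hoxb8 site: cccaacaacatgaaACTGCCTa
Of the 22 positions, 21 formed Watson-Crick pairs and 1, within the seed, a G-U pair, with 0 unpaired. The best ungapped stretch after the stop codon of any other member left 4 or more positions unpaired, although Hoxb6 and Hoxb7 each held 1 full match to the seed. The Mir196a-1 row was listed at 0 in all 8 libraries. A gene-level row of this kind does not measure the mature microRNA.

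Hoxb7 (ENSMUSG00000038721, chr11:96286623-96290162, plus strand), known from the ureteric bud of the kidney, followed Hoxb8. It was detected at 13.7, 0.145, 0.181 and 2.46 CPM in WT 1 to 4 and at 0.802, 0.367, 15.8 and 0.624 CPM in Degs2_KO 1 to 4. WT 2 and WT 3 rested on 7 and 8 fragments and are the least precise of these values, whereas WT 1 had 435 and Degs2_KO 3 had 682.

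Hoxb6 (ENSMUSG00000000690, chr11:96292476-96301569, plus strand) was the most abundant of Hoxb2 to Hoxb8 per kilobase in every library. Its libraries read 46.5, 1.02, 1.04 and 8.93 CPM in WT 1 to 4 and 2.24, 1.70, 44.5 and 1.66 CPM in Degs2_KO 1 to 4. In WT 1 the level was 23.6 times the median library and in Degs2_KO 3 it was 22.6 times the median. The lowest library of Hoxb6 still held 46 fragments.

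Hoxb5 (ENSMUSG00000038700, chr11:96303336-96306121, plus strand), a regulator of enteric nervous system development, gave 23.0, 0.684, 0.657 and 4.61 CPM in WT 1 to 4 and 1.35, 1.05, 23.3 and 0.993 CPM in Degs2_KO 1 to 4. The genotype ranges overlapped from end to end. The antisense gene Hoxb5os shares 100 exon bases with Hoxb5 and was at 0.763 CPM or less, so it could add little to these counts. No source used here says whether the counting used strand.

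Hoxb4 (ENSMUSG00000038692, chr11:96318267-96321638, plus strand), known for expanding blood stem cells, reached 14.1 CPM in WT 1 and 13.1 in Degs2_KO 3. The other WT libraries, 2 to 4, were at 0.332, 0.294 and 3.23 CPM, and Degs2_KO 1, 2 and 4 at 0.939, 0.711 and 0.716 CPM. Its promoter is the other of the 2, and it is printed as a partner to that of Hoxb8, since both genes had the same libraries on top. It covers chr11:96318017-96318316 on the plus strand of GRCm38.p6, and capitals mark the 1 match to AGGTCA, which reads TGACCT on this strand.
Hoxb4 promoter: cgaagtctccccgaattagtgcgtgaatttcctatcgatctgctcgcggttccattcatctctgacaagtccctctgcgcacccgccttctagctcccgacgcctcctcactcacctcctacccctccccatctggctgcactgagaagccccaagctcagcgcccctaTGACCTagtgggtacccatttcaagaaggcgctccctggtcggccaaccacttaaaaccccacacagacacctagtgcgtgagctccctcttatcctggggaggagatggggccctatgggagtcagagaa
The Hoxb4 window held 0 matches to TTTAT, 0 to CAATAAA and 0 to TGATTNAT, with 14 CG dinucleotides. The microRNA gene Mir10a lies just upstream of Hoxb4, and its product is printed because it carries 1 seed match in Hoxb3.
miR-10a-5p: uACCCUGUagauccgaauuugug
Its precursor row was also listed at 0 in every library, which is no measure of the mature form.

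Hoxb3 (ENSMUSG00000048763, chr11:96323326-96347930, plus strand), a hindbrain patterning gene, was at 7.46, 0.166, 0.113 and 2.38 CPM in WT 1 to 4 and 0.321, 0.344, 7.19 and 0.577 CPM in Degs2_KO 1 to 4. Its lowest library, WT 3, rested on 5 fragments. The antisense gene Hoxb3os shares 2250 exon bases with Hoxb3, 52.9% of the Hoxb3 exons, and 953 with Hoxb2, 27.3% of the Hoxb2 exons. Hoxb3os itself measured 14.9, 0.373, 0.249 and 3.94 CPM in WT 1 to 4 and 0.779, 0.711, 15.9 and 0.878 CPM in Degs2_KO 1 to 4, with the same libraries high. Without strand, reads from Hoxb3os and from Hoxb3 or Hoxb2 cannot be told apart in the shared exons, so the levels of these 3 genes are uncertain relative to one another.

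Hoxb2 (ENSMUSG00000075588, chr11:96350525-96354012, plus strand), which patterns the hindbrain with Hoxb1, was near the limit of detection. WT 1 held 67 fragments, Degs2_KO 3 held 84 and WT 4 held 10, whereas Degs2_KO 1 and 2 held 3 each and WT 2, WT 3 and Degs2_KO 4 held 0. These correspond to 2.12 CPM in WT 1, 1.94 CPM in Degs2_KO 3 and 0.251 CPM in WT 4, with the remaining libraries at or under the floor. Hoxb2 did not pass the count filter and was not tested. Hoxb1, the most 3′ gene of the cluster and no member of the set, was at 0 in all 8 libraries.

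Set against one another per kilobase of annotated exon, the members fell into an abundant pair and a scarce group. The median library held 112 CPM per kb of Hoxb13 and 29.3 CPM per kb of Hoxb9. It held 1.0 CPM per kb of Hoxb6, 0.504 of Hoxb8, 0.462 of Hoxb7, 0.432 of Hoxb5, 0.322 of Hoxb4, 0.108 of Hoxb3 and 0.0197 of Hoxb2. Hoxb13 was above Hoxb9 in 7 of the 8 libraries, the exception being Degs2_KO 3 with 46.3 CPM per kb of Hoxb9 and 41.2 of Hoxb13. Neighbours in the order from Hoxb6 down to Hoxb2 had overlapping ranges over the 8 libraries, for instance 0.517 to 23.7 CPM per kb for Hoxb6 and 0.112 to 12.9 CPM per kb for Hoxb8, so that across libraries neighbouring genes do not separate. Within each library, however, Hoxb6 was above Hoxb8, and Hoxb4 was above Hoxb3 and Hoxb3 above Hoxb2, in all 8. Unless the counting used strand, the exons shared with Hoxb3os leave the places of Hoxb3 and Hoxb2 uncertain. Hoxb8, Hoxb7, Hoxb5 and Hoxb4 changed places between libraries.

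Inside WT 1 and Degs2_KO 3 the decline from Hoxb13 to Hoxb2 was shallow. WT 1 held 43.8 CPM per kb of Hoxb13, 38.0 of Hoxb9, 23.7 of Hoxb6, 12.5 of Hoxb8, 8.90 of Hoxb7, 8.27 of Hoxb5, 5.49 of Hoxb4, 1.75 of Hoxb3 and 0.607 of Hoxb2. Degs2_KO 3 gave the order Hoxb9, Hoxb13, Hoxb6, Hoxb8, Hoxb7, Hoxb5, Hoxb4, Hoxb3 and Hoxb2, so that the pair at the top was exchanged and the other ranks were those of WT 1. WT 2, by contrast, held 141 CPM per kb of Hoxb13, 25.6 of Hoxb9 and 0.517 of Hoxb6, with every other member at 0.246 CPM per kb or less.

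Per kilobase, the summed level of the 9 genes differed little between libraries, from 137 to 168 CPM per kb, while its make-up differed. Hoxb13 supplied 30.6% of the sum in WT 1 and 27.7% in Degs2_KO 3, 69.5% in WT 4, and between 76.8% and 85.8% in the other 5 libraries. Hoxb2 to Hoxb8 together supplied 42.8% in WT 1, 41.2% in Degs2_KO 3 and 7.51% in WT 4. In the remaining libraries they supplied 0.680% in WT 2, 0.707% in WT 3, 2.29% in Degs2_KO 1, 1.66% in Degs2_KO 2 and 1.63% in Degs2_KO 4. The more anterior genes together thus exceeded Hoxb13 per kilobase in 2 libraries and were a small part of the sum in the others.

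**Figure D2:**
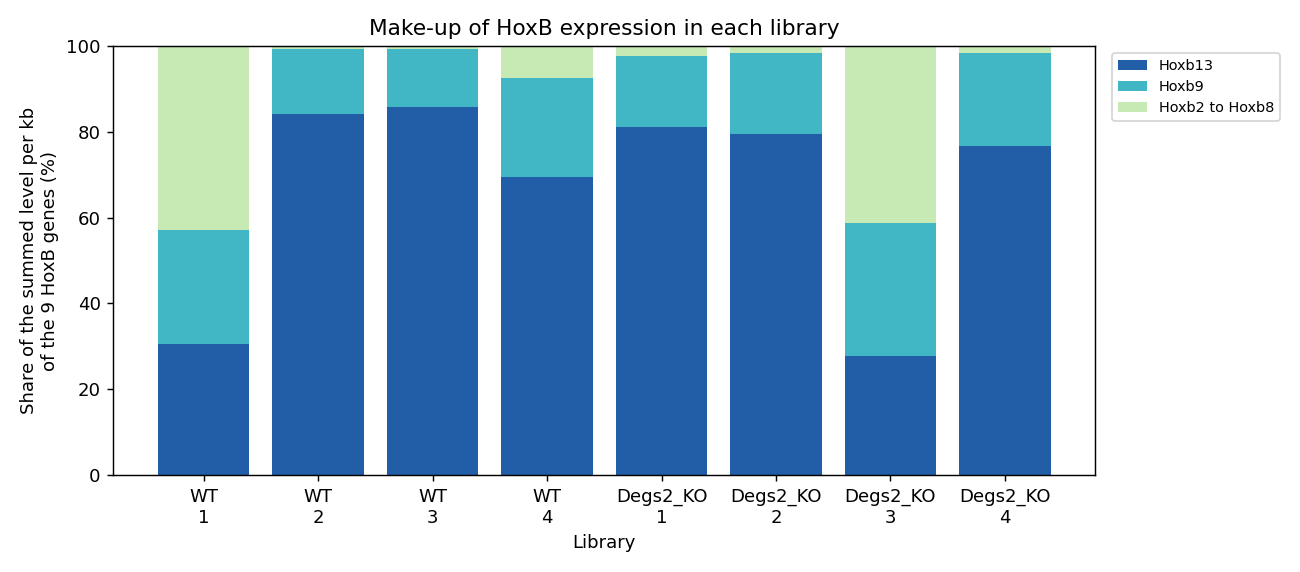
Share of the summed level per kilobase of the 9 HoxB genes (%, bars to 100) taken by Hoxb13, Hoxb9 and Hoxb2 to Hoxb8 in each library. Hoxb2 to Hoxb8 take 42.8% in WT 1 and 41.2% in Degs2_KO 3, 7.51% in WT 4 and 2.29% or less in the other 5 libraries.

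The contrast between Hoxb6 to Hoxb9 and Hoxb13 was also taken as a log2 ratio in each library, the mean log2 CPM of the 4 genes minus the log2 CPM of Hoxb13. It was -1.35, -7.72, -7.67 and -4.56 in WT 1 to 4 and -6.11, -6.45, -1.15 and -6.31 in Degs2_KO 1 to 4. WT 1 and Degs2_KO 3 were within a log2 unit of each other and at least 3 units above every other library. The single genes behaved alike in direction but not in size. The log2 of Hoxb8 over Hoxb13 ranged from -9.83 in WT 3 to -1.42 in Degs2_KO 3, and that of Hoxb9 over Hoxb13 from -2.44 in WT 3 to 0.39 in Degs2_KO 3.

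The spread between libraries stepped up between Hoxb9 and Hoxb8. The gene Gm53, a long noncoding RNA between Hoxb13 and Hoxb9, was at 74.5, 85.8, 94.2 and 112 CPM in WT 1 to 4 and 76.3, 85.9, 74.5 and 85.9 CPM in Degs2_KO 1 to 4. It thus spanned 0.59 on the log2 scale, against 1.78 for Hoxb13 on its 5′ side and 1.09 for Hoxb9 on its 3′ side. From Hoxb8 to Hoxb3 the span was between 5.03 and 6.67, all within the 82.6 kb from the start of Hoxb9 to the end of Hoxb2.

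Outside the cluster, the nearest tested gene on the Hoxb13 side, the noncoding RNA Gm11535, was lowest in Degs2_KO 3 at 0.185 CPM and next lowest in WT 1 at 0.537 CPM, within a range up to 1.20 CPM. Ttll6, a tubulin glutamylase 28.9 kb from Hoxb13, was at 28.3, 65.3, 58.1 and 66.7 CPM in WT 1 to 4 and 40.3, 53.5, 29.8 and 52.0 CPM in Degs2_KO 1 to 4. Like Hoxb13, it was lowest in WT 1 and Degs2_KO 3. Farther out on that side, Atp5g1, Snf8 and Igf2bp1 had WT 1 and Degs2_KO 3 as their highest libraries, at 1.26 and 1.21 times the median for Atp5g1, 1.19 and 1.15 times for Snf8 and 2.72 and 2.15 times for Igf2bp1. Ube2z, between Snf8 and Atp5g1, was even, from 116 to 132 CPM, with WT 1 and Degs2_KO 3 at 1.06 and 1.04 times the median. Some neighbours of the cluster thus also differed between these libraries, by smaller factors than Hoxb8 to Hoxb3. On the Hoxb2 side the nearest tested gene was Skap1, a T cell adaptor, which lay between 0.159 and 0.970 CPM with its highest values in Degs2_KO 3 and WT 1.

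**Figure D3:**
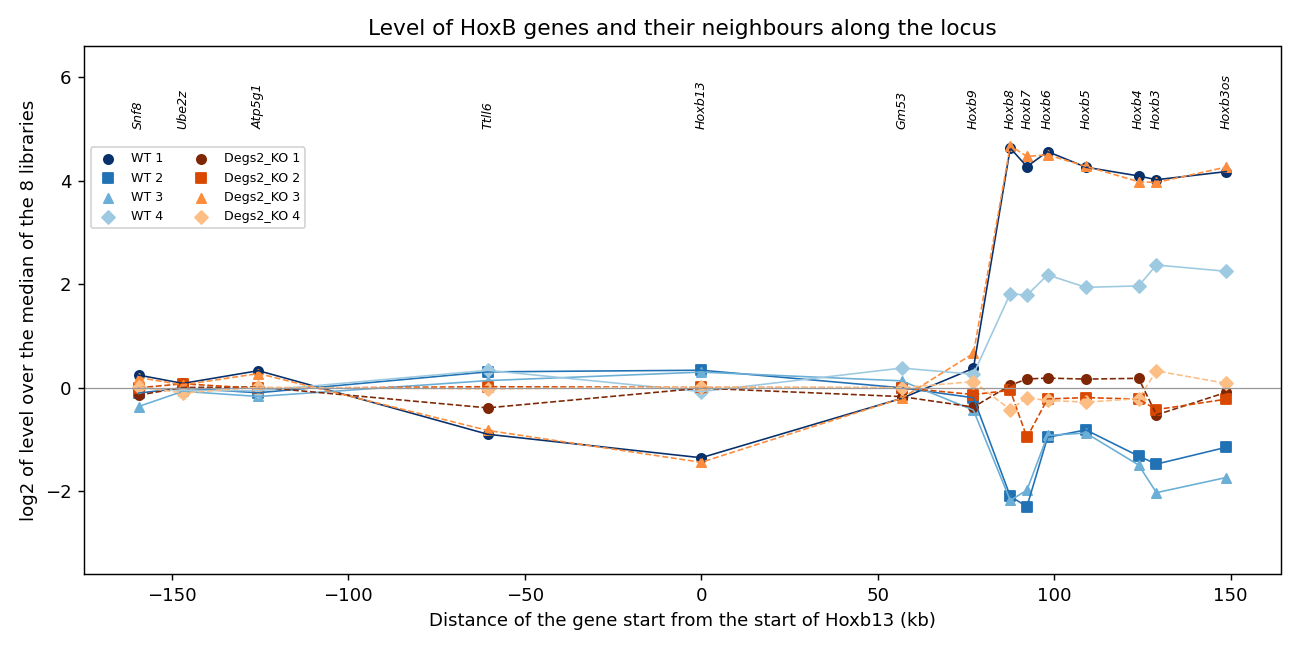
Log2 of the level over the median of the 8 libraries for HoxB genes and neighbours, against the distance of each gene's start from the start of Hoxb13 (kb). Lines join the genes of 1 library; WT 1 and Degs2_KO 3 lie below 0 at Ttll6 and Hoxb13 and near 4 or above from Hoxb8 to Hoxb3os, WT 4 lies near 2 there, and Gm53 is close to 0 in every library.

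Between the genotypes, 0 of the 8 tested members were called, and 0 of the 9 had groups that did not overlap. Over all genes edgeR called 0 of 16132 (0.00%, smallest adjusted p 0.796), 1.13% (183 genes) had an unadjusted p under 0.05, and 1.05% (170 genes) had groups that did not overlap. The smallest adjusted p was that of Degs2 itself, which edgeR did not call at a log2 fold change of -1.07 ± 0.15 (SE). The absence of calls is thus weak evidence of no difference. DESeq2 called 2 genes, 0.00707% of those it tested, neither of them a member, and gave no adjusted p for Hoxb8, Hoxb7 and Hoxb2, which it could therefore not call. Log2 fold changes of Degs2_KO over WT were -0.18 ± 0.41 for Hoxb13 and 0.08 ± 0.25 for Hoxb9. For the scarcer members they were -0.02 ± 1.57 for Hoxb8, 0.08 ± 1.52 for Hoxb7, -0.20 ± 1.43 for Hoxb6, -0.12 ± 1.36 for Hoxb5, -0.22 ± 1.35 for Hoxb4 and -0.26 ± 1.36 for Hoxb3 (± SE).

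Of the 8 tested members 2 had positive and 6 negative fold changes, and their median was -0.15, beside -0.01 over all tested genes. The standard errors of Hoxb3 to Hoxb8 had a median of 1.40, where all tested genes had 0.161, and each genotype held 1 library with a far higher level than its others. The 95% interval of Hoxb8 ran from -3.58 to 3.54 and that of Hoxb13 from -1.11 to 0.74 on the log2 scale, from the t distribution at the test's degrees of freedom. A genotype difference of several-fold in Hoxb3 to Hoxb8 would therefore not be detectable in these libraries.

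The sign of the scarce members' fold change followed which library was left out. Without WT 1 the fold change of Hoxb8 was 2.43 and without Degs2_KO 3 it was -2.97. The median over the tested members was 1.68 without WT 1, -2.64 without Degs2_KO 3 and -0.68 without both, the last an alternative chosen after seeing the data. Without both, Hoxb8 was at -0.54, Hoxb3 at -1.10, Hoxb9 at -0.02 and Hoxb13 at -0.19. None of these passed the adjusted threshold of edgeR's quasi-likelihood test.

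**Figure D4:**
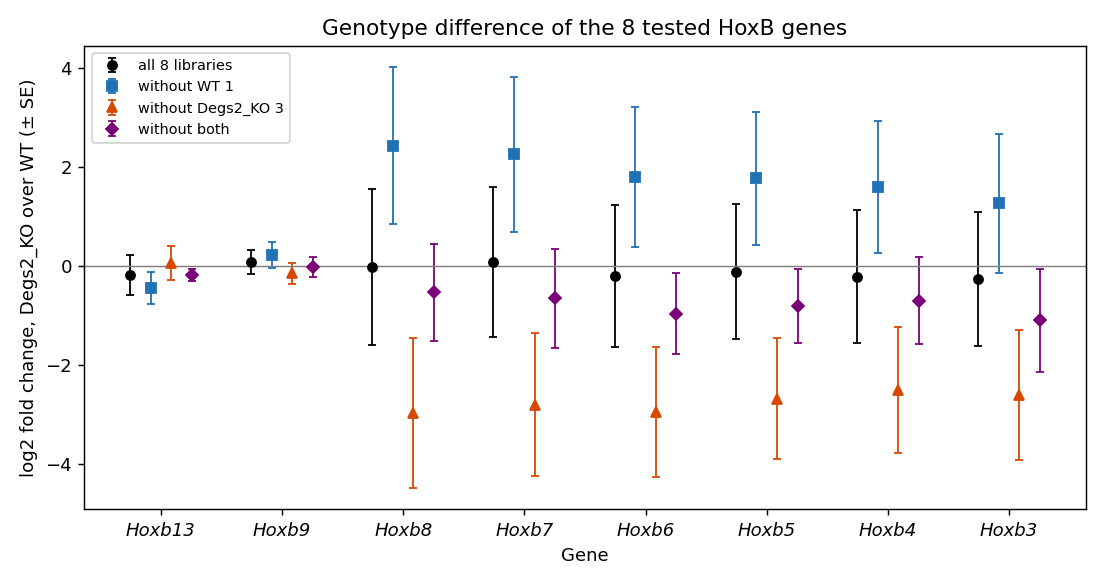
Log2 fold change of Degs2_KO over WT (± SE) for the 8 tested HoxB genes, with all 8 libraries, without WT 1, without Degs2_KO 3 and without both. For Hoxb8 the value is -0.02 with all libraries, 2.43 without WT 1, -2.97 without Degs2_KO 3 and -0.54 without both, while Hoxb13 and Hoxb9 stay between -0.44 and 0.23.

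Spread over the 8 libraries set most members apart from most other genes, but not from most tested HoxD genes. This describes values the choice had used. The SD of log2 CPM was 2.62 for Hoxb8, 2.49 for Hoxb7, 2.28 for Hoxb6, 2.20 for Hoxb3, 2.15 for Hoxb4 and 2.12 for Hoxb5. The median of all tested genes was 0.223, and each of these 6 members exceeded 99.8% or more of them. Hoxb13, with 0.71, exceeded 92.5%, and Hoxb9, with 0.38, exceeded 73.8%. Among tested HoxD genes the SD was 3.28 for Hoxd11, 3.18 for Hoxd13, 2.90 for Hoxd10, 2.61 for Hoxd12 and 1.77 for Hoxd9.

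Of the 30 other Hox genes, 16 were tested, 4 with positive and 12 with negative fold changes and 0 called, with a median of -0.12. HoxA genes, on another chromosome, spanned less than Hoxb8 to Hoxb3. Hoxa13, the paralog of Hoxb13 and the most abundant of them per kilobase, was at 45.9, 76.0, 78.6 and 85.7 CPM in WT 1 to 4 and 82.6, 74.8, 49.1 and 70.1 CPM in Degs2_KO 1 to 4. WT 1 and Degs2_KO 3 were again its lowest libraries, by a smaller factor than for Hoxb13. The paralogs of the scarce HoxB members included Hoxa7 at 53.6 to 78.6 CPM, Hoxa5 at 14.2 to 24.5 CPM, Hoxa4 at 1.27 to 2.20 CPM, Hoxa6 at 2.02 to 3.85 CPM, Hoxa3 at 30.6 to 40.9 CPM and Hoxa2 at 5.32 to 9.78 CPM. Hoxa9, the paralog of Hoxb9, lay between 45.1 and 90.5 CPM and Hoxa10 between 34.7 and 60.3 CPM, both lowest in WT 1 and Degs2_KO 3. Hoxa11 spanned 1.47 on the log2 scale, more than Hoxb9, from 1.18 to 3.31 CPM, with WT 4, Degs2_KO 3 and WT 1 highest.

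HoxC genes were at 0.125 CPM or less throughout, and HoxD genes divided between the same libraries but at another point of the cluster, since Hoxd9 went with Hoxd13 whereas Hoxb9 went with the more anterior HoxB genes. Hoxc13, a paralog of Hoxb13, was at 0 in all 8 libraries. Hoxd13, a further paralog, was at 0.695, 84.4, 85.3 and 38.8 CPM in WT 1 to 4 and 60.7, 47.7, 0.300 and 42.5 CPM in Degs2_KO 1 to 4, so that WT 1 and Degs2_KO 3 had almost none. Hoxd9, the paralog of Hoxb9, was at 0 in WT 1 and 0.0462 CPM in Degs2_KO 3, and between 0.485 and 1.31 CPM elsewhere. At the other end of that cluster Hoxd4, the paralog of Hoxb4, was at 3.90 CPM in WT 1, 5.61 in Degs2_KO 3 and 1.43 in WT 4, and 0.223 or less in the others. Hoxd8 and Hoxd3, the paralogs of Hoxb8 and Hoxb3, also had WT 1, Degs2_KO 3 and WT 4 as their highest libraries, with up to 3.05 and 1.38 CPM.

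**Figure D5:**
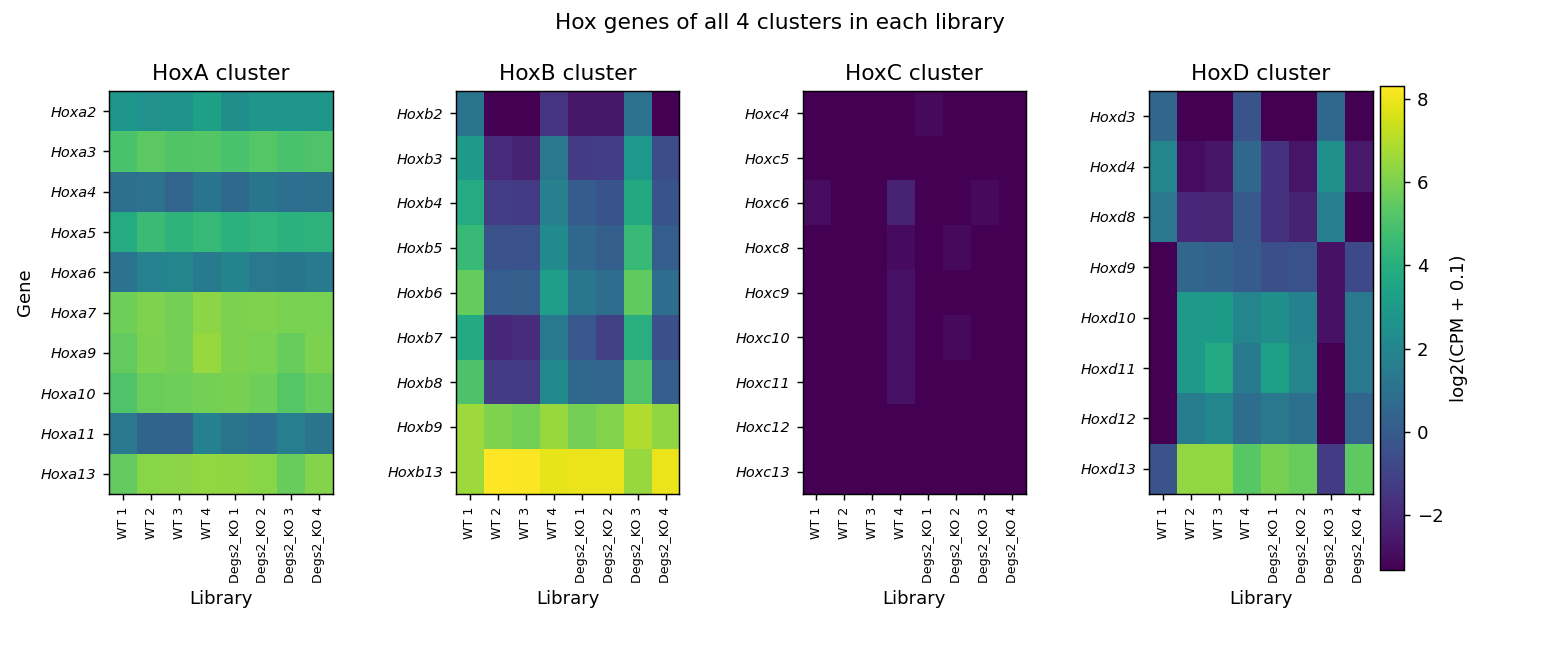
Level of Hox genes of paralog group 2 and higher in each library, as log2 of CPM plus 0.1 (colour scale), in 1 panel per cluster with genes in anterior to posterior order from top to bottom. HoxA genes span between 0.42 (Hoxa3) and 1.47 (Hoxa11) in log2 CPM, HoxC is near 0, and WT 1 and Degs2_KO 3 differ from the other libraries in opposite directions at the anterior and posterior ends of HoxB and HoxD.

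Genes known to act with or upstream of HoxB genes were described from lists. Hox cofactors of the Pbx, Meis and Pknox families had 7 of 9 genes tested, 3 with positive and 4 with negative fold changes and 0 called. Pbx2, the most abundant per kilobase, lay between 39.5 and 55.1 CPM. Meis3 had a log2 fold change of -0.22 ± 0.14 and Pknox2 one of -0.34 ± 0.32.

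Caudal factors and retinoic acid genes, which set Hox expression in the embryo, had 10 of 14 genes tested, 4 with positive and 6 with negative fold changes and 0 called. Cdx1 was even, from 287 to 335 CPM. Cdx2, the master regulator of intestinal identity, was at 289, 132, 127 and 246 CPM in WT 1 to 4 and 201, 192, 299 and 179 CPM in Degs2_KO 1 to 4, with Degs2_KO 3, WT 1 and WT 4 highest and WT 2 and WT 3 lowest, as in the scarce HoxB members. Aldh1a1, an enzyme that makes retinoic acid, was at 278 CPM in WT 1, 246 in Degs2_KO 3 and 73.3 in WT 4, and 17.4 to 37.2 in the others. Its relative Aldh1a2 was scarce, at most 1.48 CPM in WT 4. A further relative, Aldh1a3, went the opposite way to Aldh1a1, with WT 1 and Degs2_KO 3 lowest, at 0.855 CPM or less. The other libraries held 1.49 to 2.72 CPM of Aldh1a3.

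Polycomb and Trithorax genes, whose products keep Hox genes silent or active, had all 22 members tested, 11 in each direction and 0 called. Cbx8, a Polycomb reader of the histone mark on silenced genes, was the 1 gene of this list whose groups did not overlap. Over all 16132 tested genes, 1.05% had groups that did not overlap. Cbx8 was at 5.28 to 5.77 CPM over the WT libraries and 5.86 to 6.81 CPM over the Degs2_KO libraries. Its log2 fold change of 0.21 ± 0.11 did not pass edgeR's adjusted threshold. Kdm6b, a demethylase of that mark and the most abundant per kilobase, lay between 89.6 and 143 CPM.

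By a rule of likeness over the 8 libraries, genes were sought whose centred log2 CPM lay nearest to that of the members, among 11196 protein-coding genes. Nearest to Hoxb13, whose own root mean square deviation was 0.66, was B4galnt3, a glycosyltransferase, at a root mean square difference of 0.10. Thbs4, a matrix thrombospondin, Tagap and Ano1, a chloride channel, were among the next, at 0.13 each. B4galnt3 was at 31.7, 99.4, 104 and 73.7 CPM in WT 1 to 4 and 82.8, 81.1, 26.3 and 68.2 CPM in Degs2_KO 1 to 4. As with Hoxb13, WT 1 and Degs2_KO 3 were its lowest libraries.

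Nearest to the mean of Hoxb6 to Hoxb9, whose own deviation was 1.80, was Hkdc1, a hexokinase-like gene, at 0.30. Next came Ugt2b5, a glucuronosyltransferase, at 0.40, Padi2, an arginine deiminase, at 0.52, Alpi, intestinal alkaline phosphatase, at 0.54, and Slc51a, a bile acid exporter subunit, at 0.56. Hkdc1 was at 71.6, 2.14, 2.99 and 19.1 CPM in WT 1 to 4 and 6.83, 5.94, 89.0 and 3.46 CPM in Degs2_KO 1 to 4. Degs2_KO 3, WT 1 and WT 4 were its highest libraries in that order.

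Markers of gut regions differed between the same libraries as the HoxB genes. Small intestine and proximal gut genes, 6 of 10 of them tested with 1 positive and 5 negative fold changes and 0 called, summed to 483, 74.8, 91.4 and 229 CPM in WT 1 to 4 and 152, 133, 524 and 127 CPM in Degs2_KO 1 to 4. WT 1 and Degs2_KO 3 were highest, followed by WT 4. Fabp2, an enterocyte fatty acid binding protein, made up most of that sum, with 354 CPM in WT 1 and 435 in Degs2_KO 3. Slc10a2, the ileal bile acid transporter, was at 101, 3.32, 4.89 and 11.7 CPM in WT 1 to 4 and 3.46, 3.46, 70.3 and 2.1 CPM in Degs2_KO 1 to 4, and Sis, sucrase-isomaltase, at up to 13.9 CPM in WT 1. Other defining markers of the small intestine, Apoa1, Apoa4 and Lct, were at 1.03 CPM or less in all libraries.

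Colon genes, all 6 tested with 1 positive and 5 negative fold changes and 0 called, summed to between 1305 and 8546 CPM, with Degs2_KO 3 and WT 1 again highest and Car1 making up most of both sums. Car1, a carbonic anhydrase abundant in the proximal colon, reached 6179 CPM in WT 1 and 6570 in Degs2_KO 3, against 522 to 1941 CPM in the others. Scnn1g, an epithelial sodium channel subunit of the distal colon, was at 0.790 CPM in WT 1, 0.878 in Degs2_KO 3 and 5.20 to 9.95 CPM in the others. The part of the gut region in the HoxB levels was not tested.

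Markers of other cells gave the following sums. T cell markers, all 7 tested with 3 positive and 4 negative fold changes, summed to 39.8, 13.0, 7.13 and 21.0 CPM in WT 1 to 4 and 21.2, 15, 31.7 and 10.9 CPM in Degs2_KO 1 to 4, so that WT 1 and Degs2_KO 3 were highest here too. Fibroblast markers were highest in WT 4, at 35.4 CPM, but only 4.68 CPM in WT 1 and 3.07 CPM in Degs2_KO 3, with Lum and Pdgfra at 0.0316 CPM or less in both. Smooth muscle markers summed to 4.01 to 6.47 CPM, mostly Tagln, with Acta2 and Myh11 at 0.276 CPM or less. Enteric neuron and glia markers summed to 2.34 to 3.60 CPM and endothelial markers to 5.73 to 12.9 CPM. Myeloid markers stood at 1.78 to 4.49 CPM and those of B and plasma cells at 1.45 CPM or less. The part of T cells or any other of these cells in the HoxB levels was not tested.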

How the data were processed

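Per the submitters' processing notes, reads of the 8 libraries were handled with cutadapt 1.9, TopHat2 2.0.10, Cufflinks 2.1.1 and Cuffdiff on mm10; no source used here gives the annotation or strand setting. The deposited values are estimated counts of fragments per gene, scaled by library by the authors, with a status word for each; totals were 41622927 to 44606092. The values were rounded and compared with edgeR 4.0.16 in R 4.3.3 (filterByExpr, minimum count 10 and total 15, TMM, quasi-likelihood F test, 2-sided, Benjamini-Hochberg at 0.05, group as the only term). DESeq2 1.42.0 was an alternative. Only the edgeR fit was tested on simulated data. Log2 CPM used a prior count of 2. Levels per kilobase used the union of GENCODE M21 exons. The 47 genes with a failed estimate were left out, no member among them. Another 24 per-sample columns were not used.

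Dividing by each library's step gave whole fragments, within 0.02, for 96.9% to 97.2% of values up to 100. No pair of libraries agreed within counting noise.

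Named genes are the members and Hoxb1, genes overlapping or flanking the cluster, Hox paralogs, the 5 genes nearest each pattern, and from each list genes with groups that do not overlap, or up to 2 with the smallest p, plus the most abundant. Ttll6, Gm53, Atp5g1, Snf8, Ube2z, Igf2bp1, Hoxa10, Hoxa11, Cdx2, Aldh1a1, Aldh1a3, Scnn1g, Epcam and the small intestinal and other markers given near 0 were named after their values were seen. Some genes that the rule takes are not reported here. The members and lists were chosen with earlier results of these data known.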

Additional observations from a re-analysis of the deposited data

Results flagged for a closer look

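In 26 groups of 4 libraries, the highest or lowest library's gap to its nearest neighbour was set against the group's range, where chance exceeds Dixon's critical value in about 1 group in 20. The gap exceeded it in 13 groups, which share libraries and are not independent. The choice of the HoxB genes had used these levels and named WT 1 and Degs2_KO 3, so these gaps describe the values that choice rested on and support nothing further. In Degs2_KO the library was replicate 3 each time. Its Hoxb13 level was the lowest, at 91.0 CPM against 245 to 249 CPM in the others. It was the highest for Hoxb8 at 33.9 CPM, Hoxb7 at 15.8 CPM, Hoxb6 at 44.5 CPM, Hoxb5 at 23.3 CPM, Hoxb4 at 13.1 CPM, Hoxb3 at 7.19 CPM, Hoxb2 at 1.94 CPM and the antisense gene Hoxb3os at 15.9 CPM. Its log2 ratio of Hoxb6 to Hoxb9 over Hoxb13 was -1.15, where the other Degs2_KO libraries were between -6.45 and -6.11.

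In WT the library was replicate 1, for Hoxb8 at 32.9 CPM against at most 4.69 CPM, for Hoxb7 at 13.7 CPM against at most 2.46 CPM and for Hoxb2 at 2.12 CPM against at most 0.251 CPM. The other WT groups were below the critical value, with WT 4 between WT 1 and the remaining libraries.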

How the results depend on the processing

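The members' median log2 fold change, -0.15, was between -0.15 and -0.13 with DESeq2, library totals, median-of-ratios factors, no count filter and the authors' scaling undone. Leaving out 1 library moved it between -2.64 (without Degs2_KO 3) and 1.68 (without WT 1), and it was also above 0 without Degs2_KO 1, 2 or 4 in turn, at 0.19, 0.16 and 0.15. Of 64 member values with 1 library left out, 52 stayed within 1 SE of the value from all libraries, and 0 passed the threshold. edgeR called 0 genes under every setting run, with 133 to 782 at an unadjusted p under 0.05 when 1 library was left out; DESeq2 called 2, Degs2 and Dlk1.

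With the replicate number as a block, the median was -0.39 and 0 genes were called, with 99 at an unadjusted p under 0.05. Same-numbered libraries had deviations correlated at -0.42, 0.44, -0.56 and -0.10. A library far from the rest of its group can set such correlations, so they cannot decide whether the numbers pair the samples.

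The ratio of Hoxb6 to Hoxb9 over Hoxb13 was also taken from summed CPM. Hoxb9 made up most of the Hoxb6 to Hoxb9 sum in every library. The log2 values were -2.21 in WT 2, -2.40 in WT 3, -1.14 in WT 4, -1.97 in Degs2_KO 1, -1.78 in Degs2_KO 2 and -1.55 in Degs2_KO 4. In WT 1 and Degs2_KO 3 the log2 ratio turned positive, at 0.98 and 1.23, and these remained the highest libraries. Depth limits Hoxb2, which had 3 or fewer fragments in 5 libraries.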

Other observations

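Between the genotypes, the marker lists of other cells held 0 genes called by edgeR's adjusted threshold. Fibroblast markers had 5 of 8 genes tested, 0 with positive and 5 with negative log2 fold changes and a median of -0.79. The largest fold change was that of Dcn, a matrix proteoglycan, with -1.32 ± 0.83 (SE). WT 4 held 15.3 CPM of it, and the other 7 libraries at most 6.44 CPM. Endothelial markers had 2 of 5 tested, both negative, with Pecam1 at -0.60 ± 0.28. Myeloid markers had 4 of 5 tested, 1 positive and 3 negative, and C1qa, a complement subunit of macrophages, was at 2.50 CPM in WT 1 and at most 0.462 CPM elsewhere. Epithelial markers had all 8 tested, 6 positive and 2 negative, with a median of 0.03, and the smallest unadjusted p belonged to Krt18, a keratin, at 0.20 ± 0.09.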
